A study of Mus musculus with 12 samples.

Results

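A total of 6406 m6A peaks of mouse skin lay in the last exon of their gene and were called in both control and UV-exposed samples. They were chosen from 42989 deposited peaks, of which 24969 were called in UV and 18020 in control. A UV peak counted as shared when it was at most 10000 bp wide and overlapped a control peak on the same strand, and as a last-exon peak when its midpoint lay in the last of at least 2 merged exons by strand. Of the 14803 UV peaks that overlapped a control peak, 3293 had their midpoint in an internal exon and 1237 in the first exon. A further 2560 lay in introns or outside exons, 720 in genes with a single exon, 584 were over the width limit, and the few others lay in genes without one place in the gene table. The 6406 peaks belonged to 4721 genes. Of the 4659 genes with a RefSeq match, 4602 (98.8%) were protein coding and 53 were long noncoding RNA genes.

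N6-methyladenosine (m6A) is a methyl mark placed on RNA by a nuclear writer complex built around METTL3 and METTL14, with WTAP and KIAA1429 (Virma) among its adaptor subunits. It is known to concentrate in long internal exons and in the last exon of messenger RNAs, often near the stop codon and the beginning of the 3′ untranslated region, where reader proteins that govern decay and translation bind it. In immunoprecipitation of methylated RNA (MeRIP-seq), fragments bound by an m6A antibody (IP) are sequenced beside the unselected RNA of the same sample (input). Input reads under a peak thus reflect the RNA of that stretch, and the IP over input ratio reflects the mark.

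The series asks how KIAA1429 and the microfibril protein gene Mfap4 relate to photoaging of skin. It held 3 control and 3 UV-exposed skin samples, each with an IP and an input library. Mouse strain and age, the kind, dose and timing of UV and the antibody were not stated in any label. The labels do not tell whether samples of one group came from different mice, and a p-value here reflects only how far the samples spread. All 10 skin marker genes checked, epidermal keratins and dermal collagens among them, were detected in every library. In bulk tissue, fewer cells of a type and less RNA per cell cannot be told apart.

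Each library held 24126662 to 92163619 reads in genes. The last-exon peaks took 8.59% to 9.42% of the peak reads in input libraries and 10.3% to 11.2% in IP libraries. That total sums the UV and control lists, so reads in shared regions enter it from both. The median peak had 38 to 97 input reads and 93 to 325 IP reads per library. Control input 2 was the shallowest library and left 1269 of the peaks with under 10 reads, against 421 to 1064 in the other input libraries. Reads in last-exon over first-exon shared peaks gave ratios of 3.58, 4.15 and 3.18 in control input and 3.12, 3.64 and 3.34 in UV input. The groups overlapped. These peaks lie in part in different genes, so the ratio is no direct measure of RNA integrity, which was not tested. Summed input levels of the dermal matrix and of the sebocyte and fat cell markers separated the groups. Dermal matrix genes summed to 12946 to 14211 CPM (read counts scaled to library size) in control and 9912 to 11208 in UV, and sebocyte and fat cell genes to 2645 to 3376 and 4618 to 5325. Skeletal muscle genes summed to 13193 to 28729 CPM in control and 5876 to 16054 in UV, and keratinocyte genes to 51746 to 114161 and 98292 to 136146. Immune cell genes summed to 337 to 438 and 305 to 338. In the muscle, keratinocyte and immune lists the groups overlapped. None of the genes of these lists was at 0 on average in either group.

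The peaks crowded into the beginning of the last exon. The median peak was 270 bp wide, in a last exon of 2405 bp, with its midpoint 583 bp from the exon start. Per kb of last exon, there were 0.227 peaks in the first 100 bp, 1.29 from 100 to 200 bp, 1.75 from 200 to 400 bp, 0.788 from 400 to 1000 bp, 0.401 from 1000 to 2000 bp and 0.173 beyond 2000 bp. The first 400 bp thus held 36.7% of the peaks in 15.5% of the last-exon length. Long exons alone gave the same picture, since the 3834 peaks in exons of at least 2000 bp had 27.0% of their number in the first 400 bp, which is 10.4% of the length. The median relative position was 31.6% of the way through the exon, against 46.8% for shared peaks in internal exons and 37.7% in first exons. Peaks that cross into the intron can fall outside the set by their midpoint, which limits the count in the first 100 bp. The exon lists carry no coding annotation, so whether a midpoint lies in coding sequence or untranslated region was not analysed here.

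**Figure D1:**
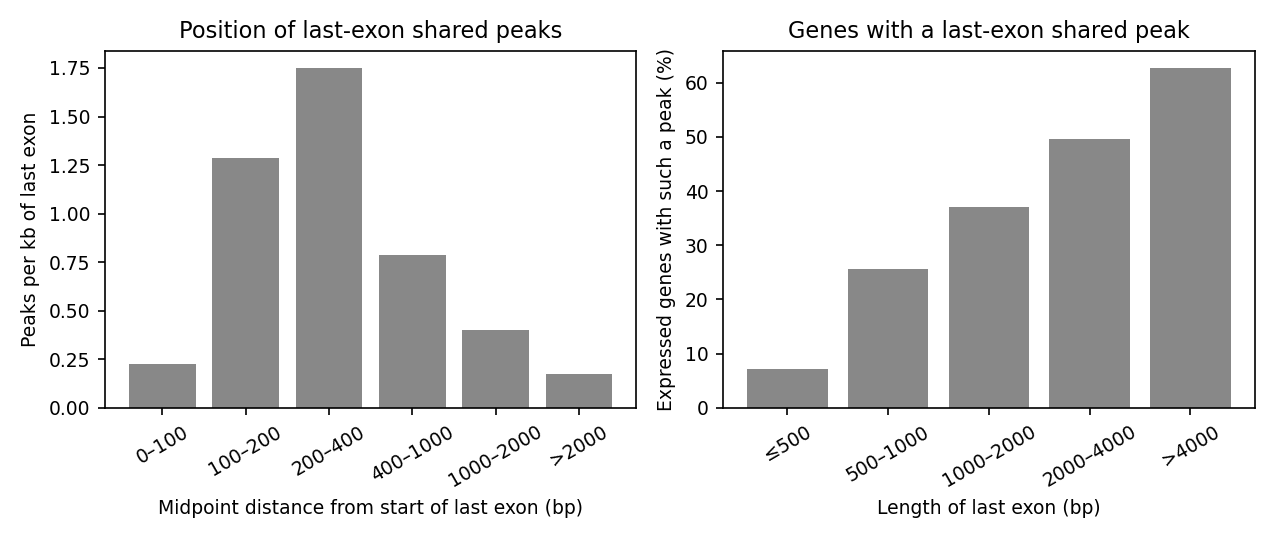
Left, number of last-exon shared peaks per kb of last exon (y axis) in bins of midpoint distance from the exon start in bp (x axis). Right, percent of expressed genes with at least 2 exons that held such a peak (y axis) by last-exon length in bp (x axis). The density is highest at 200 to 400 bp (1.75 per kb), and the percent of genes rises from 7.17% in the shortest to 62.7% in the longest exons.

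Few of the selected peaks touched the splice junction, which the selection itself favours. Of the 6406, 6290 (98.2%) lay wholly inside the last exon, 116 began before it, and 26 began within 1 bp of its start. A peak that spans an intron can have its midpoint in that intron or pass the width limit, and then falls outside this set. The share is therefore no measure of how m6A peaks lie at the junction. The midpoints of the UV peak and of its best-overlapping control partner differed by a median of 30 bp, a distance that the choice of overlapping peaks limits, with 2824 UV midpoints downstream, 2697 upstream and 885 equal. The widths did differ, with a median of 270 bp in UV and 238 bp in control. The UV peak was the wider one in 4130 pairs and the narrower in 1523. Whether peaks were called per sample or on pooled samples is not given in the sources used here, and the depth of the libraries differed, so the part of either in the widths was not tested.

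Most genes had a single such peak. Of the 4721 genes, 3518 had 1 peak, 872 had 2, 231 had 3, 73 had 4 and 27 had at least 5, so peaks of one gene share a transcript. Of the 6406 peaks 87 overlapped another of them on the same strand. Ahnak2, a giant scaffold protein gene whose last exon spans 13402 bp, had 10 peaks, with 2 pairs that covered nearly the same bases. Its peak nearest the exon start, 344 bp in (chr12:112784773-112785729, GRCm38), carried most of the reads, with 959.5, 893 and 974 CPM in the control IP libraries 1 to 3 and 1093, 907 and 1174 in the UV ones. The other 9 peaks held between 5.23 ± 0.203 and 60.9 ± 6.7 CPM (SD, n = 3) in control IP. The ratio of IP to input differed between the ends of this exon: its log2 mean over the 6 samples, relative to other peaks, was 0.52 in the first peak, 0.60 in the next and −0.44 in the peak 12642 bp from the start, which was below 0 in all 6 samples.

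Exph5, which encodes a Rab27 effector of the epidermis, and Apc, the scaffold of the beta-catenin destruction complex, each had 8 peaks in last exons of 5272 and 10185 bp. In Exph5 the far end was the more enriched, with a relative ratio of −0.27 in the peak 468 bp from the exon start and 0.36 in the one at 5166 bp. In Apc the peak at 6186 bp held 30.2, 34.4 and 28.4 CPM in control input and 35.7, 37.2 and 35 in UV input, the highest input level of its 8 peaks. Neither gene had a peak that passed a test between UV and control. Over all 1203 genes with at least 2 such peaks, the peak nearest the exon start exceeded the farthest one by a median log2 ratio of only −0.011 to 0.079 per sample, was higher in all 6 samples in 223 genes and lower in all 6 in 186.

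Among expressed genes, those with a long last exon held a peak more often. Of 10700 genes with at least 2 exons and at least 5 CPM in input, 3745 (35.0%) had a last-exon shared peak. The share was 7.17% for last exons up to 500 bp, 25.5% from 500 to 1000 bp, 37.1% from 1000 to 2000 bp, 49.6% from 2000 to 4000 bp and 62.7% above. The median last exon was 2165 bp in genes with a peak and 1037 bp in those without, and the median input level was 24.6 and 21.3 CPM.

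Growth factor, immediate early and zinc finger genes often carried such a peak, and ribosomal protein and muscle genes seldom did. Of the expressed growth factor receptors and ligands 21 of 27 did (77.8%), as did 10 of 13 immediate early genes (76.9%), 153 of 225 zinc finger genes (68.0%), 24 of 38 chromatin regulators (63.2%) and 28 of 45 Wnt, Notch, Hedgehog and TGF-beta signalling genes (62.2%). Examples are Erbb2, Pdgfrb and Errfi1 of the growth factor list, Egr1, Egr2 and Egr3 of the immediate early list, Tet3, Arid1b and Chd7 of the chromatin list, and Jag1, Jag2 and Notch2 of the signalling list. Genes of the p53 and damage response (12 of 25), the circadian clock (8 of 17), keratinocytes (22 of 47), dermal matrix (18 of 42) and sebocytes and fat cells (9 of 23) lay between 39.1% and 48.0%. Only 3 of 13 immune genes and 10 of 77 cytoplasmic ribosomal protein genes (13.0%) had one, and 0 of 20 skeletal muscle genes, although 7 of those 20 had a shared peak elsewhere. Last-exon length differed along with these shares, from a median of 275 bp in the muscle list and 338 bp in the ribosomal one to 2368 bp in the growth factor list and 2898 bp in the zinc finger one. Its part in them was not tested.

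**Figure D2:**
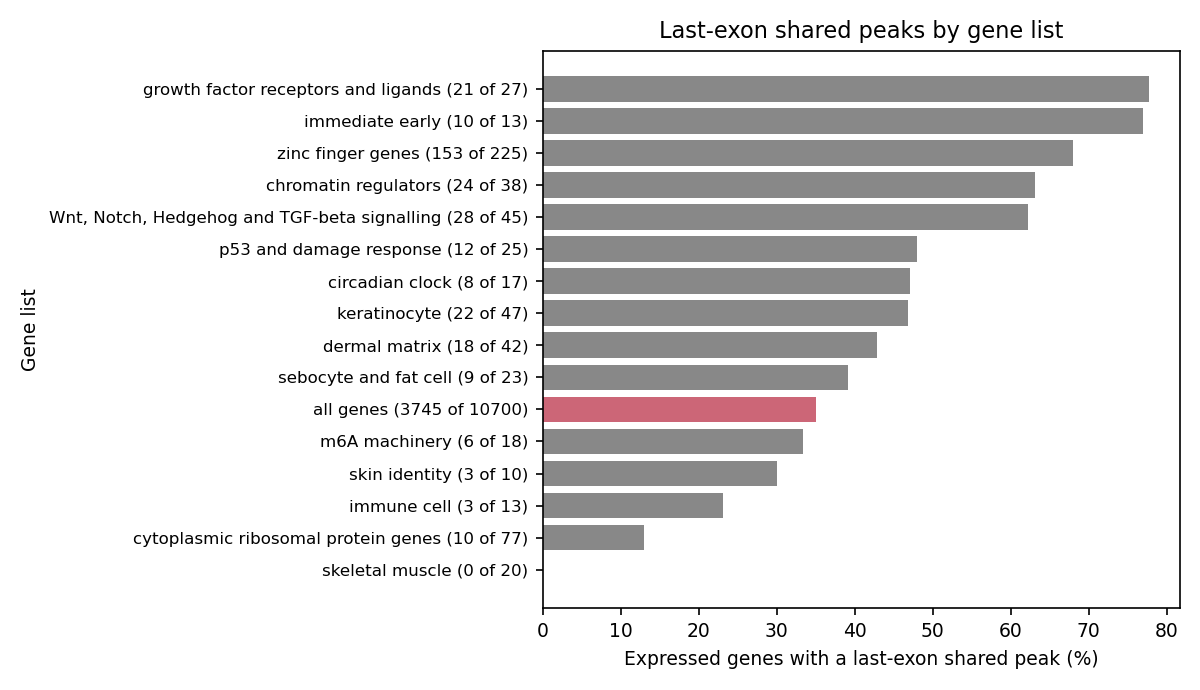
Percent of expressed genes with at least 2 exons (x axis) that held a last-exon shared peak, by gene list (y axis), with the counts in brackets. All 10700 expressed genes are in red at 35.0%. Growth factor genes (77.8%) stand at the top and skeletal muscle genes (0 of 20) at the bottom.

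The level of IP over input is what a peak caller selects on, so it is described without a test. The relative ratio used here is the log2 of IP CPM over input CPM of the same sample, scaled over all peaks (TMM), so that 0 is about the level of a typical peak. The median over the last-exon peaks was 0.21, 0.28 and 0.24 in control samples 1 to 3 and 0.32, 0.31 and 0.30 in UV samples. All 3 UV samples lay above the controls, but so did the medians over all 42989 peaks, at 0.014, 0.050 and 0.013 in control and 0.093, 0.11 and 0.096 in UV. First-exon shared peaks had group means of 0.18 ± 0.13 (SD, n = 3) in control and 0.22 ± 0.022 in UV, and internal-exon peaks 0.090 ± 0.016 and 0.11 ± 0.0071. Scaled to all reads in genes instead, the last-exon peaks had a median log2 ratio of 1.42 ± 0.14 in control and 1.48 ± 0.027 in UV, about a 2.73-fold enrichment, and the groups overlapped.

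**Figure D3:**
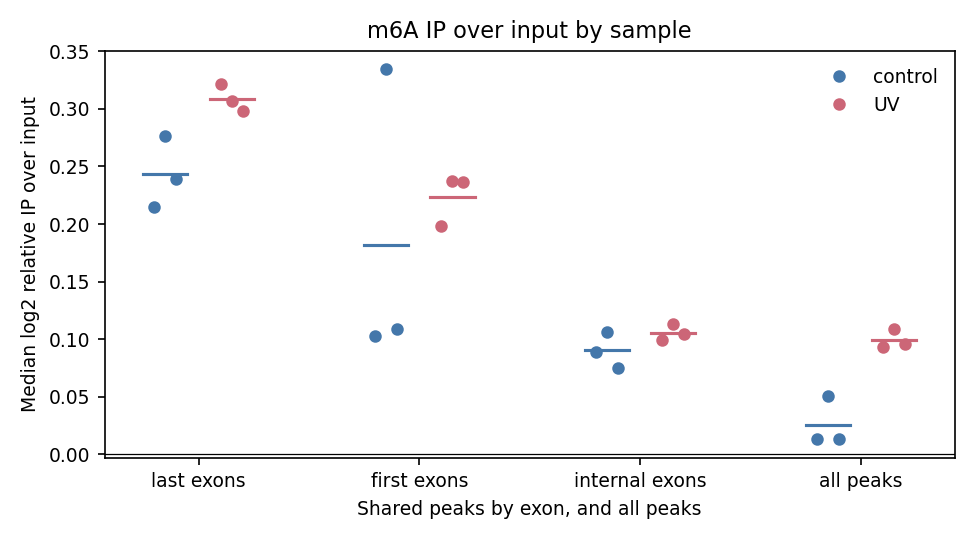
Median log2 relative IP over input (y axis) of shared peaks in last, first and internal exons and of all peaks (x axis). Each point is a sample and each line a group mean (n = 3), control in blue and UV in red. Last-exon medians lie between 0.21 and 0.32, and control sample 2 stands apart in first exons at 0.33.

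Inside genes, the median difference from internal exons was above 0 in each sample, while that from first exons had no single sign across samples. In the 731 genes with shared peaks in both a last and an internal exon, the last-exon ratio was higher by a median of 0.14 to 0.25 per sample, higher in all 6 samples in 196 genes and lower in all 6 in 70. In the 420 genes with peaks in both a last and a first exon, the median difference lay between −0.13 and 0.065, with 70 genes higher and 68 lower in all 6 samples. Along the last exon the ratio was lowest in the first 100 bp, at a mean of 0.093 in control and 0.094 in UV. It was highest from 400 to 1000 bp, at 0.29 in control and 0.37 in UV, and lower again beyond 2000 bp, at 0.20 and 0.24. The single peaks spread widely, since the 5th to 95th percentiles of their 6-sample means ran from −0.41 to 1.15. The ratio exceeded 0 in all 6 samples in 2307 peaks (36.0%, against 22.3% of all peaks). Being called in both control and UV favours such a peak, and all peaks include those called in only 1 of them. The share in first- and internal-exon shared peaks is not given here, so this is no result about last exons.

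The most enriched last-exon peak with at least 1 CPM of input lay in Nab2, a corepressor of EGR transcription factors, 297 bp from the exon start (chr10:127661334-127661631). Its input level was 2.23, 1.79 and 1.76 CPM in control and 0.873, 1.17 and 1.46 in UV, and its IP level 9.56, 8.64 and 9.15 and 5.5, 6.74 and 6.32. That is a 11.2-fold IP over input on the scale of reads in genes. Mapk1ip1l followed at 8.61-fold, Zfp612, a zinc finger gene, at 8.21-fold, and Ube2q1, an E2 ubiquitin-conjugating enzyme gene, at 8.01-fold. Gli1, the transcription factor and target of Hedgehog signalling, stood at 7.94-fold, Amigo1 at 7.65-fold, Frrs1 at 7.62-fold and the teneurin gene Tenm4 at 7.5-fold. Most of these hold few input reads, and their sample ratios spread accordingly: in Zfp612 the relative log2 ratio was 1.35, 2.69 and 1.5 in control and 1.38, 2.5 and 1.82 in UV, whereas in Tenm4, with the highest input level of the 8, it was 1.77, 1.74 and 1.7 and 1.77, 1.51 and 1.68.

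The peaks with the most IP reads belonged to structural genes of the epidermis and hair follicle: 3 peaks of Tchh, the trichohyalin gene of the inner root sheath, and 1 each of Dsp, Ppl and Flg, which encode desmoplakin, periplakin and filaggrin. The Dsp peak (chr13:38194742-38195072, 211 bp from the exon start) held 4057, 3239 and 4542 CPM in control IP and 5085, 4722 and 5028 in UV IP. Its relative log2 ratio was below 0 in every sample, from −0.53 to −0.16, as was that of the Flg peak, from −0.53 to −0.091. The Tchh peak 385 bp from the exon start had a ratio of 0.58, 0.66 and 0.60 in control and 0.36, 0.46 and 0.37 in UV. Its input level varied widely between samples, with 3833, 5610.1 and 2495 CPM in control and 1648, 3628 and 3776 in UV, and the groups overlapped.

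Virma, the gene named in the series title under its human symbol KIAA1429, had no last-exon shared peak. Its 2 shared UV peaks had their midpoints in an internal exon and outside the exons. Mfap4, which encodes a microfibril-associated glycoprotein of elastic fibres, had 1 last-exon shared peak, 832 bp into a last exon of 1147 bp (chr11:61488392-61488780). The study chose this gene, so it is not independent of these samples. Its input level was 5.17, 6.69 and 5.45 CPM in control samples 1 to 3 and 2.4, 2.52 and 3.32 in UV samples, and the groups did not overlap. Its IP level was 3.96, 3.29 and 2.73 CPM in control and 2.61, 3.17 and 3.99 in UV, which did overlap. The RNA under the peak therefore fell, with a log2 change in input of −1.04 (SE 0.20, adjusted p = 0.0163) in edgeR's quasi-likelihood test, while the IP change was −0.054 (SE 0.19, adjusted p = 0.916). The input call was lost without control sample 1, UV sample 1 or UV sample 2, with an adjusted p of 0.00112 to 0.0879 over 12 refits. The IP over input ratio was −0.38, −1.01 and −0.99 in control and 0.12, 0.32 and 0.26 in UV, below 0 in every control sample and above 0 in every UV sample. The change of enrichment was 0.99 (SE 0.28, adjusted p = 0.54), and with IP and input paired by sample it was 1.02 (adjusted p = 0.0309), a call that rests on this pairing. Input is the denominator of that ratio, so its fall and the rise of enrichment are not separate measurements. Summed dermal matrix markers, Mfap4 among them, were lower in UV too (9912 to 11208 CPM against 12946 to 14211), and their part was not tested.

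Of 18 expressed genes of the m6A machinery 6 held a last-exon peak: the writer subunits Mettl14, Wtap, Cbll1 and Zc3h13, the second methyltransferase Mettl16, and the reader Ythdf2. None of their 7 peaks passed the test in input, IP or enrichment. The Wtap peak, for example, held 7.76, 8.03 and 7.28 CPM in control input and 6.33, 7.19 and 5.94 in UV input, with a log2 change of −0.24 (SE 0.15, adjusted p = 0.365). The median change of the 7 peaks was −0.20 in input, 0.024 in IP and 0.26 in enrichment, against −0.057, −0.014 and 0.046 over all last-exon peaks tested.

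The input libraries show how the RNA under the peaks differed between UV and control. Of the 6406 peaks, 5828 passed the filter on low counts and 212 passed edgeR's quasi-likelihood test at a Benjamini-Hochberg adjusted p below 0.05. This is 3.64% of those tested, close to the 3.93% of all peaks. The called peaks comprised 122 higher in UV, in 111 genes, and 90 lower, in 86 genes, against 2.55% and 1.39% of all peaks in those directions. In each of the 212 the 3 UV samples did not overlap the 3 controls. Selection by this test favours such peaks, so it is no further support. DESeq2 called 183 higher and 117 lower, against 3.63% and 1.84% of all peaks (5.47% in either direction). With library size as the only scaling, the split turned to 66 higher and 157 lower, while the median of all peaks moved from −0.036 to −0.16 on the log2 scale. The number called rested on single samples: it was 25 without UV sample 1, 60 without UV sample 2, 73 without UV sample 3, 39 without control sample 1 and 340 without control sample 2. It was 232 without control sample 3.

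In some genes several peaks of the exon rose together. All 3 peaks of Rnf169, a ubiquitin ligase gene of the DNA damage response, 4 of 5 of Cers4, a ceramide synthase gene, and both peaks of Elovl6, a fatty acid elongase gene, were higher in UV input. These genes were picked after their values were seen. The Cers4 peak 2065 bp from the exon start (chr8:4525624-4525714) had 15.5, 12.8 and 13.5 CPM in control input and 38.5, 35.2 and 34.4 in UV input. Its log2 change was 1.36 (SE 0.12, adjusted p = 0.000195), the smallest adjusted p among the peaks called higher, and it passed in all 12 refits. Its IP change was 0.81 (SE 0.14, adjusted p = 0.0169), a call lost without UV sample 1 or 2 (up to 0.101). Summed sebocyte and fat cell markers, which were higher in UV (4618 to 5325 against 2645 to 3376 CPM), moved with these lipid genes, and their part was not tested.

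Among called peaks with at least 1 CPM, the largest rise in input was in Gpr179, an orphan receptor gene known from the retina, whose peak 2917 bp from the exon start had 0.353, 0.521 and 0.16 CPM in control and 2.35, 1.47 and 1.49 in UV. Its log2 change was 2.45 (SE 0.43, adjusted p = 0.0111), at a level of few reads. Nrg1, a ligand of ErbB receptors, rose from 0.47, 1.34 and 1.09 to 3.71, 3.8 and 2.38 CPM, with a log2 change of 1.85 (SE 0.35, adjusted p = 0.016). Dkk2, a secreted modulator of Wnt signalling, had 2.91, 3.42 and 3.3 CPM in control and 8.29, 7.87 and 7.9 in UV in its peak 299 bp from the exon start (chr3:132178004-132178333). The UV values were tightly grouped and the log2 change was 1.33 (SE 0.16, adjusted p = 0.00143). Cd24a, which encodes a small surface glycoprotein, rose by 1.28, the syntaxin gene Stx11 by 1.3, the anoctamin gene Ano3 by 1.5 and Msl3l2 by 1.44. Their adjusted p-values in edgeR were 0.00755, 0.0137, 0.0163 and 0.03. The call of Dkk2 held in all 12 refits. Those of Gpr179, Cd24a and Stx11 were lost without control sample 1 or UV sample 1 (adjusted p up to 0.0723, 0.058 and 0.0779), and that of Nrg1 also without UV sample 2 (up to 0.0818). Those of Ano3 and Msl3l2 were lost without control sample 1 or any 1 UV sample (up to 0.0938 and 0.131).

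The largest fall in input was in Dab1, the adaptor of reelin signalling, 289 bp into its last exon (chr4:104741697-104741907). It had 1.5, 1.12 and 1.57 CPM in control input and 0.0546, 0.113 and 0.122 in UV input, and 5.68, 4.91 and 5.38 and 0.361, 0.200 and 0.285 CPM in IP, where it was nearly gone. Its log2 change was −3.74 (SE 0.46, adjusted p = 0.00152) in input and −4.35 (SE 0.22, adjusted p = 1.89e-05) in IP in edgeR. DESeq2 gave the input change no adjusted p, and both calls held in every other refit. Igfbp3, a binding protein of insulin-like growth factors, fell from 12.8, 13.7 and 12 to 3.6, 2.75 and 4.24 CPM, with a log2 change of −1.85 (SE 0.17, adjusted p = 0.00023). Satb1, a chromatin organiser, fell from 5.7, 5.8 and 5.93 to 1.75, 1.58 and 2.07 CPM, with a log2 change of −1.68 (SE 0.19, adjusted p = 0.000988). The controls of Satb1 differed by less than 0.3 CPM. Slc9a9, an endosomal sodium and proton exchanger gene, fell by 1.97 and Clca3a2, of the calcium-activated chloride channel regulator family, by 1.85 on the log2 scale (adjusted p = 0.00314 and 0.00146 in edgeR).

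Il20ra, a receptor subunit for interleukin 20 cytokines, fell by 1.58 in its stronger peak and by 2.84 in a weaker one on the log2 scale (adjusted p = 0.00759 and 0.0414 in edgeR). Erv3, the zinc finger gene Maz, Tceal7 and the muscle calcium-binding protein gene Srl fell by 2.79, 1.96, 1.83 and 1.82, with adjusted p-values of 0.0183, 0.0337, 0.0341 and 0.0469 in edgeR. Skeletal muscle markers summed to 13193 to 28729 CPM in control and 5876 to 16054 in UV. They were lower on average in UV, as was Srl, but the groups overlapped, and their part was not tested. The input calls of Igfbp3, Satb1, Slc9a9, Clca3a2 and the stronger Il20ra peak held in all 12 refits. Those of Erv3, Maz, Tceal7 and Srl were each lost without control sample 1 or UV sample 1 (adjusted p up to 0.0675, 0.143, 0.139 and 0.166). Leaving out UV sample 2 also ended the calls of Maz, Tceal7 and Srl, leaving out UV sample 3 that of Maz, and leaving out control sample 2 or scaling to the gene table that of Srl. The weaker Il20ra peak lost its call without any sample but control sample 2, with the gene table scaling and with the replicate number as a block (up to 0.116).

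**Figure D4:**
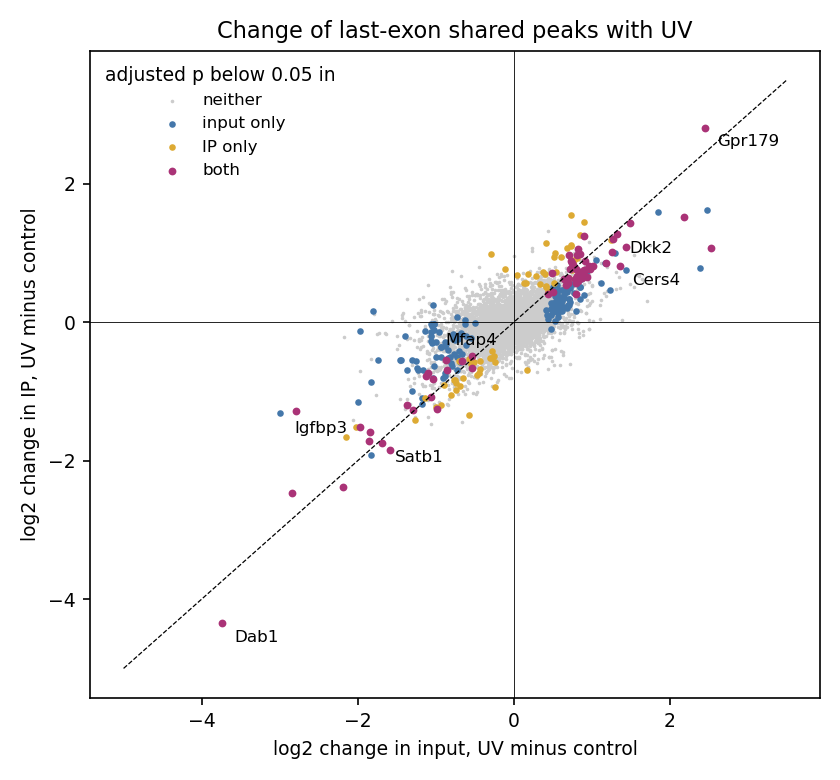
Log2 change of each last-exon shared peak between UV and control in input (x axis) and IP (y axis). Points are peaks coloured by where their adjusted p in edgeR was below 0.05, and the dashed line marks equal change. Dab1 lies lowest (−3.74 in input, −4.35 in IP) and Gpr179 highest in IP (2.81), while Mfap4 lies above the line at −1.04 in input and −0.054 in IP.

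Of the gene lists, the dermal matrix one held the largest number of peaks lower in input. Of 22 tested, 5 fell and 0 rose, where 1.39% of all peaks were called lower, and the median change was −0.35 against −0.057 over all last-exon peaks. They were Col1a1, Col1a2 and Col5a1, chains of the fibrillar collagens, Tnxb, the tenascin X gene, and Mfap4, which the study chose. Col1a1 fell from 287, 330.4 and 249 to 159, 194 and 187 CPM in the peak 252 bp into its last exon (chr11:94951545-94951904), with a log2 change of −0.68 (SE 0.13, adjusted p = 0.0145). Col1a2 fell from 44.2, 50.6 and 36.5 to 16.2, 24.6 and 25 CPM, 281 bp into its own (chr6:4540528-4541066), with a log2 change of −0.99 (SE 0.17, adjusted p = 0.0112). Col5a1 fell by 0.62 and Tnxb by 1.37 (adjusted p = 0.0203 and 0.0337 in edgeR). Of the 5, the number called was 0 without control sample 1 or without UV sample 1, 2 without UV sample 2 and 2 without UV sample 3. Over the list it rose to 9 without control sample 2. The adjusted p reached 0.0958 for Col1a1, 0.064 for Col1a2, 0.106 for Col5a1 and 0.0893 for Tnxb over the 12 refits. Summed dermal matrix markers were lower in the UV samples, as given above. That sum includes these 5 genes, so it is no separate measure, and its part was not tested.

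Some peaks of p53 and damage response genes rose. Of 11 tested in input 4 rose and 0 fell, where 2.55% of all peaks were called higher: Cdkn1a, the p21 cell cycle inhibitor gene, Mdm2, the ubiquitin ligase of p53, Gadd45a and the polo-like kinase gene Plk2. Plk2 rose from 13, 14.2 and 12.9 to 21.3, 26.1 and 22.4 CPM, with a log2 change of 0.80 (SE 0.13, adjusted p = 0.0071), in all 12 refits. Mdm2 rose by 0.53, Gadd45a by 0.60 and Cdkn1a by 0.51 (adjusted p = 0.023, 0.0243 and 0.0422 in edgeR). These 3 calls were lost with library size as the only scaling and without control sample 1 or any 1 UV sample, Cdkn1a also without control sample 3, with the gene table scaling and with the replicate number as a block, with adjusted p up to 0.131, 0.108 and 0.166. In the sebocyte and fat cell list 4 of 12 rose and 0 fell, against the same 2.55%: Scd1, the stearoyl-CoA desaturase gene, Elovl3, Plin4 and Acaca. Scd1 rose from 742, 516 and 763 to 1339.6, 1235 and 1200.5 CPM, with a log2 change of 0.90 (SE 0.14, adjusted p = 0.00744), which was lost only without UV sample 1 (adjusted p = 0.0609). Elovl3 rose by 0.72, Plin4 by 0.81 and Acaca by 0.49 (adjusted p = 0.0103, 0.0182 and 0.0482 in edgeR). They too were lost without UV sample 1, Plin4 and Acaca also without control sample 1 or UV sample 2, and Acaca without control sample 3 or UV sample 3 with either other scaling by library size and with the replicate number as a block (up to 0.0773, 0.0832 and 0.195).

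Over all peaks, 2.55% were called higher in input and 1.39% lower, the shares to set beside the lists that follow. In the circadian list 2 of 13 peaks rose and 0 fell. They were those of Per1, a repressor of the clock loop, and Tef, a transcription factor of clock output. Per1 had 6.55, 9.67 and 7.63 CPM in control input and 10.6, 18 and 15.2 in UV input, and 4.94, 7.88 and 7.09 and 14, 19.5 and 14.1 CPM in IP. Its log2 change was 0.90 (SE 0.20, adjusted p = 0.0295) in input and 1.25 (SE 0.19, adjusted p = 0.00806) in IP. That of Tef was 0.83 (SE 0.15, adjusted p = 0.0129) in input and 1.06 (SE 0.12, adjusted p = 0.0021) in IP. Both IP calls held in all 12 refits, while the input calls were lost without control sample 1, UV sample 3 and others (adjusted p up to 0.147 and 0.077). The time of day of collection is not given in the sources used here. Of 32 keratinocyte peaks, Dsp and Dsc1 of the desmosome rose and the transcription factor gene Ovol1 fell in input. Summed keratinocyte markers, these genes among them, were 51746 to 114161 CPM in control and 98292 to 136146 in UV, and their part was not tested. The median change of the 32 was 0.11 and turned to −0.0058 with library size as the only scaling and to −0.0069 without control sample 2. Those 3 calls were lost without control sample 1 or any 1 UV sample (up to 0.127, 0.161 and 0.137), that of Dsc1 also with either other library size scaling. Of 55 signalling peaks Axin2, a feedback target of Wnt signalling, and Bmp4 fell and 0 rose, by 0.79 and 1.04 (adjusted p = 0.0413 and 0.0352 in edgeR). Both calls were lost without control sample 1 or UV sample 1 or 2, Axin2 also without control sample 2 or UV sample 3 and with the replicate number as a block (up to 0.129 and 0.147). Nrg1 was the only call among 31 growth factor peaks. Of 401 zinc finger peaks 3 rose and 0 fell, 1 in Zfp518b and 2 in Zbtb38, named after their values were seen. Cd74, the MHC class II invariant chain, fell from 16.9, 25.7 and 22.9 to 13.1, 11.4 and 11.7 CPM, with a log2 change of −0.86 (SE 0.16, adjusted p = 0.0138), lost without any 1 UV sample (up to 0.065). Summed immune cell markers, Cd74 among them, were 337 to 438 CPM in control and 305 to 338 in UV, and their part was not tested. None of the 15 immediate early, 44 chromatin or 11 ribosomal protein peaks passed in input. Of the 3 skin identity peaks, that of Col1a1 was the only call.

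In the IP libraries, 6322 of the peaks were tested and 128 (2.02%) passed edgeR's test, against 1.9% of all peaks. They comprised 75 higher and 53 lower in UV (1.12% and 0.777% of all peaks), and DESeq2 called 142 higher and 128 lower, against 1.92% and 1.77% of all peaks (3.69% in either direction). The count was 16 without UV sample 1, 42 without UV sample 2, 73 without UV sample 3, 29 without control sample 1 and 284 without control sample 3. Of the 122 peaks called higher in input and the 75 called higher in IP, 44 were in both lists, and of the 90 and 53 called lower, 21 were. Input and IP libraries come from the same samples. Among the 53 peaks lower in IP were Dab1, as given above, and Cdh4, the R-cadherin gene, which fell from 2.15, 2.44 and 2.13 to 0.389, 0.34 and 0.614 CPM. Both Il20ra peaks were lower too, by 1.84 in the stronger and 2.46 in the weaker one (adjusted p = 0.006 and 0.015 in edgeR), the latter call lost without control sample 1 or UV sample 1 (up to 0.0819).

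The log2 IP change was −2.38 (SE 0.24, adjusted p = 0.00106) for Cdh4, −1.74 (SE 0.14, adjusted p = 0.000176) for Satb1 and −1.72 (SE 0.13, adjusted p = 0.000122) for Igfbp3. Clca3a2 fell by 1.59, Slc9a9 by 1.52, Scn4a, the sodium channel of skeletal muscle, by 1.65 and Maneal by 1.34 (adjusted p = 0.00129, 0.00426, 0.0355 and 0.0121 in edgeR). The calls of Dab1, Cdh4, Satb1, Igfbp3, Clca3a2, Slc9a9 and the stronger Il20ra peak held in all 12 refits. Those of Scn4a and Maneal were lost without UV sample 1 or 2, Scn4a also without UV sample 3 or control sample 2 and Maneal without control sample 1 (up to 0.131 and 0.0669). The skeletal muscle marker sums given above were lower on average in UV, as was Scn4a, but the groups overlapped, and their part was not tested. Among the rises in IP, the Gpr179 peak went from 0.362, 0.451 and 0.28 to 3.59, 2.71 and 1.84 CPM, with a log2 change of 2.81 (SE 0.29, adjusted p = 0.00113). Dkk2 changed by 1.28 (SE 0.14, adjusted p = 0.00176). Both held in all 12 refits.

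B3gnt3, a glycosyltransferase gene, rose by 1.55 in IP, Sgpp2, a sphingosine 1-phosphate phosphatase gene, by 1.45, Ano3 by 1.44, Cd24a by 1.2 and the RNA-binding protein gene Celf5 by 1.2. Their adjusted p-values in edgeR were 0.0109, 0.0102, 0.0124, 0.0335 and 0.0396. Each of the 5 lost its call without UV sample 1, and all but Sgpp2 without control sample 1. Ano3, Cd24a and Celf5 also lost it without UV sample 2, Cd24a and Celf5 without UV sample 3, and Celf5 without control sample 2 (up to 0.0674, 0.0585, 0.0705, 0.16 and 0.171). Of the 12 sebocyte and fat cell peaks 5 rose in IP and 0 fell, where 1.12% of all peaks were called higher: both Elovl3 peaks, Scd1, Plin4 and Acacb. In Elovl3 the IP level went from 27.6, 26.1 and 32.3 to 69.1, 54.5 and 47 CPM in the peak 828 bp from the exon start, with a log2 change of 0.98 (SE 0.14, adjusted p = 0.00695). Without control sample 1, 1 of these 12 peaks was called. The sebocyte and fat cell marker sums given above, which include these genes, moved the same way, and their part was not tested. In the dermal matrix list 2 of 22 peaks fell in IP, where 0.777% of all peaks were called lower. Ltbp1 and Col15a1 fell by 0.51 and 0.53 (adjusted p = 0.0438 and 0.0485 in edgeR). Both calls were lost with library size as the only scaling and without any 1 sample but control sample 3, Col15a1 also with the replicate number as a block (up to 0.203 and 0.188).

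The other lists held few IP calls. Over all peaks, 1.12% were called higher in IP and 0.777% lower. Of 12 p53 and damage response peaks Plk2 and Sesn2, a stress-induced sestrin gene, rose by 0.77 and 0.67 (adjusted p = 0.0117 and 0.0364 in edgeR). Of 32 keratinocyte peaks Tgm3, a transglutaminase gene, rose by 1.1 and Ovol1 fell by 0.49 (adjusted p = 0.015 and 0.0263). Lgr6 of the signalling list fell by 0.56, Dusp6 of the immediate early list by 0.83 and Cd74 by 0.69 (adjusted p = 0.0358, 0.0415 and 0.0133). Each of these 7 calls was lost without control sample 1 or UV sample 1, with adjusted p up to 0.0777, 0.172, 0.0892, 0.141, 0.172, 0.177 and 0.081 in that order. All but Tgm3 were lost without UV sample 2 as well. No growth factor, chromatin, zinc finger, ribosomal protein or skin identity peak passed in IP.

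**Figure D5:**
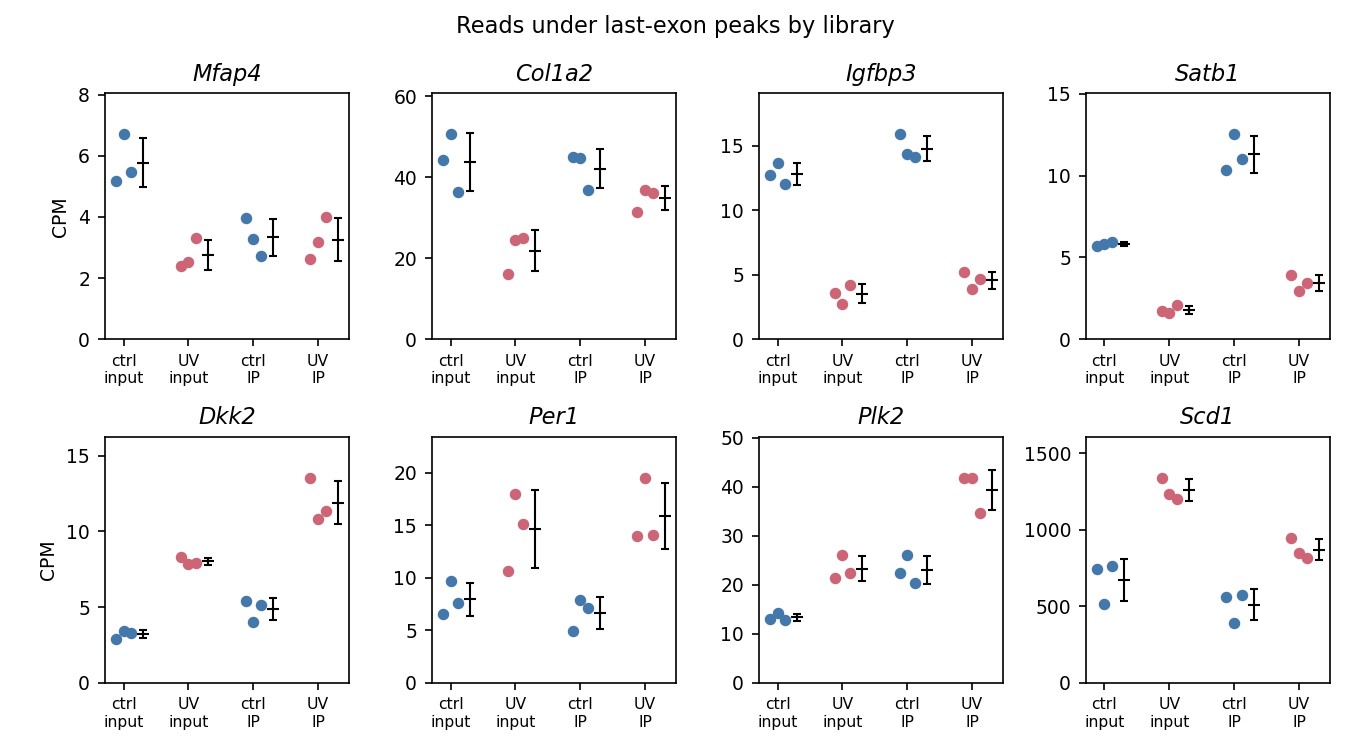
CPM of the reads under 8 last-exon peaks (y axis) in control (blue) and UV (red) libraries of input and IP (x axis). Points are libraries, and black bars give the mean ± SD (n = 3). In Igfbp3 and Satb1 both input and IP are lower in UV, in Dkk2, Per1, Plk2 and Scd1 both are higher, and in Mfap4 and Col1a2 the input is lower.

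The change of enrichment is IP over input in UV against IP over input in control. Without pairing IP and input by sample, it passed edgeR's test in none of the 6231 peaks tested, the same as in all peaks (0%). With the pairing 40 passed, as given below. Without it the smallest adjusted p was 0.495, and 425 peaks (6.82%, against 8.08% of all peaks) had an unadjusted p below 0.05. DESeq2 called none either, against 0.0301% of all peaks (0.0226% higher and 0.00752% lower), and 383 had an unadjusted p below 0.05 there. In the authors' deposited table, none of these peaks had an FDR below 0.05, against 45 of all peaks, and the smallest was 0.0511. The same table gave 217 (3.39%) an unadjusted p-value below 0.05, against 5.51% of all peaks. The median log2 change of enrichment was 0.046, with the 5th and 95th percentiles at −0.48 and 0.82. Of the peaks 3.66% changed by more than 2-fold, against 6.04% of all peaks. All peaks include those called in UV or control only, while these were called in both, which favours a small change. The lower shares here are therefore no result about last exons. Unadjusted p in edgeR was below 0.05 in 7.20% of first-exon and 5.74% of internal-exon shared peaks. In simulated counts, with changes placed in better-covered peaks, the edgeR test recovered 39 of 100 with a 2-fold change of enrichment. It recovered 91 of 100 with a 4-fold one. The lack of calls without the pairing therefore does not show a lack of change.

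The main edgeR and DESeq2 tests of enrichment left out the pairing of IP and input by sample, although IP and input of one sample vary together. With IP and input paired by sample as a block, 40 peaks passed in edgeR, 23 higher and 17 lower in UV. This is 0.642% against 0.872% of all peaks (0.393% higher and 0.479% lower). All peaks include those called in UV or control only. Shared peaks in first and internal exons had 0.828% and 0.679%. The peaks named next were singled out after their values were seen. Higher ones included Maz, at 1.86 (adjusted p = 0.0309), the ribosome assembly gene Heatr3, at 1.93 (adjusted p = 0.0292), Mospd3, at 1.31 (adjusted p = 0.0323), Cat, which encodes catalase, at 1.26 (adjusted p = 0.0119), and Gatad2b, of the NuRD chromatin complex, at 1.19 (adjusted p = 0.0496). The Maz peak had 1.15, 1.12 and 0.898 CPM in control input and 0.109, 0.377 and 0.274 in UV input. The Heatr3 peak had 1.18, 0.669 and 0.866 and 0.382, 0.264 and 0.183 CPM, so both changes rest on few input reads. Their IP changes were −0.13 and 0.16 (adjusted p = 0.787 and 0.727 in edgeR). In Cat the relative log2 ratio was 0.68, −0.10 and 0.49 in control and 2.12, 1.49 and 1.42 in UV, without overlap. Its input level fell from 3.53, 4.09 and 3.82 to 1.64, 1.54 and 2.32 CPM (adjusted p = 0.0291 in edgeR, up to 0.124 and not called without control sample 1 or 3 or UV sample 1 or 2), and its IP level was 5.66, 3.82 and 5.38 and 7.28, 4.42 and 6.3. Col1a2 was also called with the block, at 0.72 (adjusted p = 0.00131), with ratios of 0.028, −0.18 and 0.011 in control and 0.96, 0.59 and 0.54 in UV. Without the block its change was 0.71 (SE 0.22, adjusted p = 0.54).

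Lower ones with the block included Casz1, a zinc finger transcription factor gene, at −0.56 (adjusted p = 0.00265), the nucleotidase gene Nt5c, at −0.64 (adjusted p = 0.00448), the transcriptional repressor gene Hic1, at −0.88 (adjusted p = 0.0379), Zc3h18, at −0.56 (adjusted p = 0.0458), Gpat4, of glycerolipid synthesis, at −0.55 (adjusted p = 0.03), and the zinc finger gene Zfp970, at −0.50 (adjusted p = 0.0347). Casz1, 1709 bp into its last exon (chr4:148952855-148953453), had a ratio of 0.69, 0.52 and 0.67 in control and 0.026, 0.12 and 0.051 in UV. In Nt5c the input rose from 21.8, 19.3 and 24.4 to 40.1, 35.7 and 39.2 CPM, while the IP level was 24.8, 19.6 and 26.2 and 24.6, 26 and 28.9, which overlapped. Phf23, among the 3 smallest p-values for a higher enrichment without the block, had 1.21 (SE 0.28, adjusted p = 0.495) in edgeR, and its block value of 1.2 (adjusted p = 0.0857) did not pass either. The size of enrichment change ran opposite to the input change, which is its denominator: the 122 peaks higher in input had a median log2 enrichment change of −0.23 and the 90 lower ones one of 0.49.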

How the data were processed

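Total RNA of 6 skin samples gave 12 stranded libraries, per the labels. The deposited tables hold raw read counts per gene and per peak, with STAR 2.5.3a and GRCm38 named in the submitters' processing notes. The sources used here do not give the counter, the peak caller, its threshold or any pooling. Per the file headers the peak table also holds the authors' log2 change of enrichment, p-value and FDR. Exons came from the gene table. Deposited starts met exon starts after adding 1 (1966, against at most 118 at other offsets), so coordinates count from 1. UV and control lists overlap, so shared reads are counted in both.

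Counts of all 42989 peaks were scaled with TMM, filtered with filterByExpr and tested with edgeR 4.0.16 (R 4.3.3), Benjamini-Hochberg adjusted over all peaks tested. Enrichment was the interaction over 12 libraries, and its main test did not pair IP and input by sample. SE is the log2 change over the square root of F. Ratios used a prior count of 2. The code was tested on simulated counts. Departures from group means of IP and input of one sample number correlated at 0.14 to 0.29, each above 0.1, so numbers pair IP with input. Those of different numbers correlated below 0. Centring on group means brings this about on average once the former lie above 0, so it adds no support. Control and UV of one number correlated at −0.060 to 0.062 and are not paired. Replicates exceeded counting noise (chi-square per degree of freedom 15.7 to 74.5).

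Peaks named were those of Virma and Mfap4, the 6 with most IP reads, the 8 most enriched, up to 10 called per test and direction by size with at least 1 CPM and no overlap of samples (the 3 smallest p where fewer were called), up to 3 per gene list, and the 3 genes with most peaks, leaving out Gm and Rik names in the tests; a few peaks that met this rule are not reported here. Other list peaks that passed a test, and those called with the sample block, were named after their values were seen. Members and lists were chosen with earlier results of these data known. Alternatives were DESeq2 1.42.0, library size or gene-table scaling, no filter, UV-called peaks only, the sample block, each sample left out, a prior count of 0.5, 50% overlap, a 2000 bp limit and a 2-fold minimum.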

Additional observations from a re-analysis of the deposited data

Results flagged for a closer look

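In 7 of the named peaks the relative IP over input ratio lay on one side of 0 in every control sample and on the other in every UV sample, and this difference was not tested as such. The UV mean minus the control mean of the log2 ratio was 1.03 in Mfap4 and 1.20 in Srl, which turned from below to above 0. It was −0.92 in Hic1, −0.64 in Nt5c, −0.18 in Ppl, and −0.37 and −0.31 in the Apc peaks 1753 and 6186 bp from the exon start, which turned from above to below 0. Hic1 and Nt5c were named for their change of enrichment, so their separation is not independent of that choice. How many of all last-exon peaks cross 0 in this way was not counted, so the number 7 has no share to set beside it. A ratio of 0 is only the level of a typical peak, so crossing it is no gain or loss of the mark.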

How the results depend on the processing

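Over up to 12 refits of 77 tests of named peaks, 915 of 917 values kept their direction, and DESeq2 gave 7 further tests no adjusted p. The other 2 values were the IP change of Mfap4, which turned to 0.088 without control sample 1 and 0.069 without UV sample 1 and ranged from −0.22 to 0.088 as each sample was left out. Of 69 calls, 21 passed in every refit with an adjusted p and 48 were lost in at least 1, most often without UV sample 1 or control sample 1. Leaving out each sample moved the called peaks between 25 and 340 in input and between 16 and 284 in IP. It left 0 to 0 in enrichment, and the median ratio between 0.23 and 0.26 in control and between 0.30 and 0.31 in UV. A minimum 2-fold change left 67 in input and 41 in IP, and DESeq2 called 270 in IP. With the replicate block pairing IP and input, 40 passed in enrichment. A block on the number shared by control and UV samples, which does not pair them, gave 211 in input and 154 in IP. On the gene-table scale the median ratio was 1.42 in control and 1.48 in UV, and with at least 50% overlap the control median was 0.30. Depth limits the weakest peaks: 421 to 1269 peaks had under 10 reads in an input library. The cause of these changes was not tested.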
